A study of Bos taurus with 8 samples.

Results

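The heat shock proteins and the chaperones of the endoplasmic reticulum were examined in muscle cell cultures of beef and dairy bulls. A probe was a member when the RefSeq accession it carries belongs to a gene whose symbol begins with HSPA, HSPB, HSPD, HSPE, HSPH, HSP90, DNAJA, DNAJB, DNAJC or PDIA, to a subunit of the CCT chaperonin, or to SERPINH1, CALR or another named chaperone. The rule found 61 probes of 57 genes, among 21475 probes and 7788 named genes on the array. Of 92 bovine genes that satisfy the rule, 35 had no matched probe, CRYAB, HSPB1, HSPB7, CANX, HSP90AB1, HSPA9, PDIA4 and PDIA6 among them, and were not analysed here. Gene expression was measured in proliferating cells of Limousin (LIM), Hereford (HER) and Holstein-Friesian (HF) bulls, isolated from the semitendinosus muscle at 15 months of age and collected at 80% confluence without any treatment. The cultures had been preplated and were enriched for myoblasts, not pure. Each of the 8 two-colour arrays carried RNA of a beef bull beside RNA of an HF bull, with 4 arrays of LIM against HF and 4 of HER against HF. LIM cells were labeled with Cy5 and HER cells with Cy3, and the arrays of LIM and HER were on separate slides. Breed and dye therefore cannot be told apart within a comparison, and breed, slide and dye cannot be told apart between the LIM and HER comparisons.

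Chaperones bind unfolded proteins and help them reach or keep their shape. HSP70 proteins work with J-domain partners (the DNAJ genes) that deliver substrates, HSP90 proteins complete the folding of selected clients, and the ring-shaped CCT chaperonin folds actin and tubulin in the cytosol. Inside the endoplasmic reticulum (ER), HSPA5, HSP90B1, calreticulin and the protein disulfide isomerases fold proteins that are to be secreted or put in membranes, and SERPINH1 attends to procollagen. Small heat shock proteins (the HSPB family and CRYAB) hold damaged proteins without using ATP, and several of them are abundant in muscle.

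All values are log2 ratios of a beef culture over an HF culture, so 1 is a doubling. Of the 61 member probes, 58 (54 genes) had a signal well above background in 4 or more of the 16 channels and entered the test, and 55 of the 58 had one in every channel. The probes of DNAJB3, DNAJC5B and HSPB9 were too dim to test. A probe was called when its Benjamini-Hochberg adjusted p in limma, over all 17631 tested probes, was at most 0.05 and its fold change at least 1.3. Over all tested probes, the arrays of a comparison correlated with r between 0.345 and 0.779 for LIM and between 0.330 and 0.652 for HER. LIM replicate 4 stood apart from the other LIM arrays among the members. There, 27 of the 54 genes had a sign unlike the median of the other LIM arrays, against 6 to 10 genes on each of those. Its array weight in limma was 0.299, the lowest of the 8. Where the LIM call of a member named here turns on this array, the result without it is given beside it. Among the HER arrays, replicate 4 also had the most genes with a sign unlike the median of the others. These were 18 of the 54, against 10 to 13 on HER replicates 1 to 3.

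In LIM relative to HF, 14 member probes passed, 7 higher and 7 lower. They were 24.1% of the 58, against 34.3% of all probes tested. In HER relative to HF, 9 passed, 7 higher and 2 lower, which was 15.5% of the members against 24.4% of all probes. For the mean of both beef breeds over HF, in which a dye effect of a single gene cancels, 21 passed (36.2% against 38.1%), 13 higher and 8 lower, where 17.7% and 20.4% of all probes were. With all 8 arrays, the members as a whole were thus called no more often than other probes, and the calls were spread unevenly over their classes. For 21 of the 58 probes the ratio had 1 sign on all 4 LIM arrays, and for 34 on all 4 HER arrays, where 47.8% and 51.4% of all probes had. Without LIM replicate 4, 28 member probes passed for LIM (13 higher, 15 lower) and 20 for HER, whose test shares the estimate of spread. With background correction by normexp and loess in place of the ratios of the scanner software, 12 passed for LIM and 0 for HER, where no probe of the whole array passed. For LIM, 4139 of all probes passed in that setting. Both comparisons rest on HF cultures, and HF bulls may be shared between them, so their values are given side by side.

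**Figure D1:**
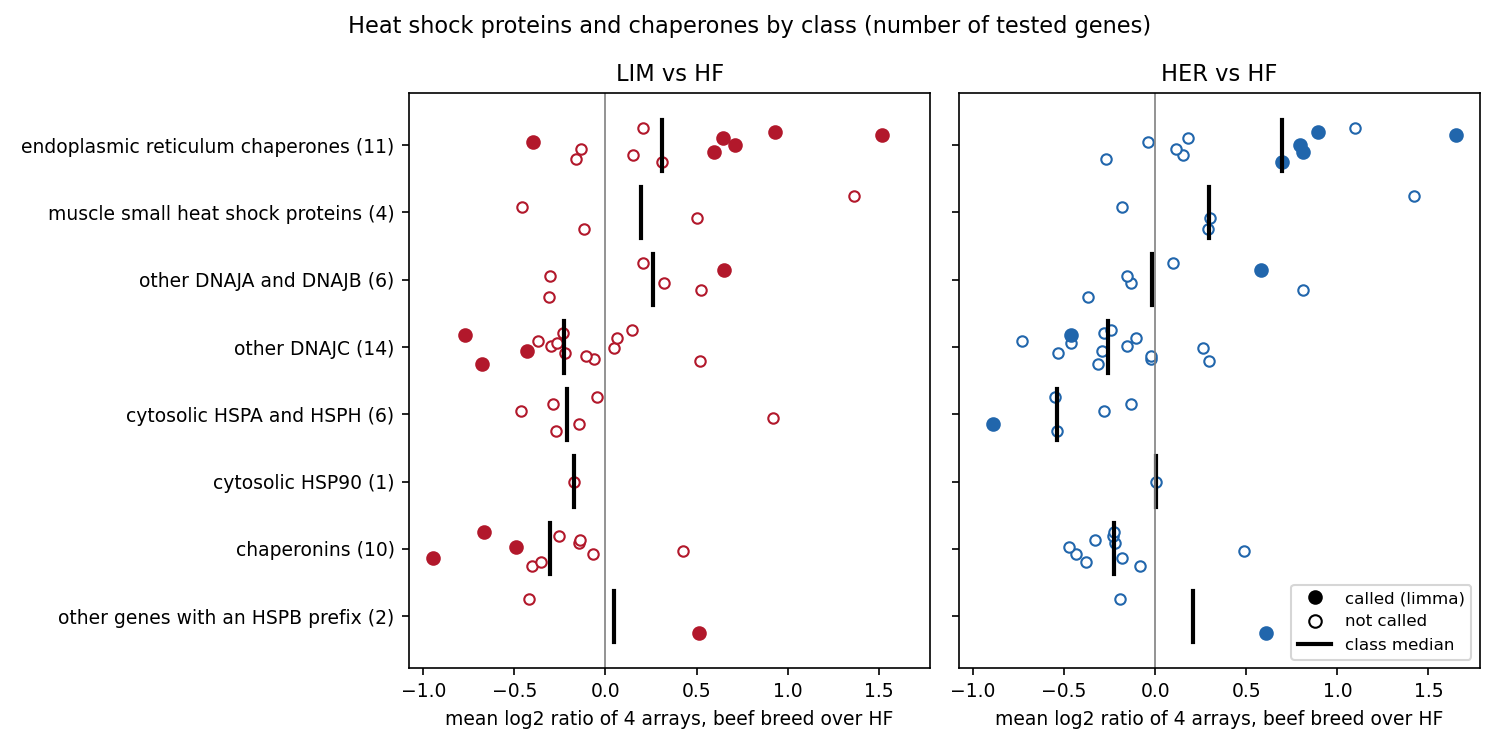
Mean log2 ratio over HF of each tested member gene (points, brightest probe), LIM on the left and HER on the right, by class, with filled points for called genes and a bar at the class median. Most filled points above 0 lie among the ER chaperones, where the class medians are 0.31 and 0.69, and the chaperonin medians are -0.30 and -0.23. HSPA1L, not well above background on any HER array, has no HER point.

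The ER chaperones held most of the calls above HF. Of the 11 genes measured, 5 were higher and 1 lower in LIM (the median of the 11 was 0.31, against -0.01 over all probes), and 5 were higher and 0 lower in HER (median 0.69, against -0.06). Over all tested probes, 16% were called higher in LIM and 10.4% in HER. PDIA3, a disulfide isomerase that acts on glycoproteins bound to calreticulin or calnexin, had the highest mean of all member genes. Its ratios were 1.78, 1.43, 1.81 and 1.06 on LIM replicates 1 to 4 and 2.42, 1.62, 1.61 and 0.96 on HER replicates 1 to 4. The gene was higher than in HF on 8 of 8 arrays, by 1.52 ± 0.35 in LIM (SD, n = 4, limma adjusted p = 0.00176) and by 1.65 ± 0.60 in HER (adjusted p = 0.00381). HSP90B1, the HSP90 of the ER, had ratios of 0.88, 0.94, 0.75 and 0.27 in LIM and 1.24, 0.73, 0.72 and 0.49 in HER. It was higher on 8 of 8 arrays too, with means of 0.71 ± 0.30 (limma adjusted p = 0.00946) and 0.80 ± 0.32 (adjusted p = 0.0109). PDIA3 and HSP90B1 were the 2 of the 9 genes called in HER that kept the call whichever HER array was left out.

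**Figure D2:**
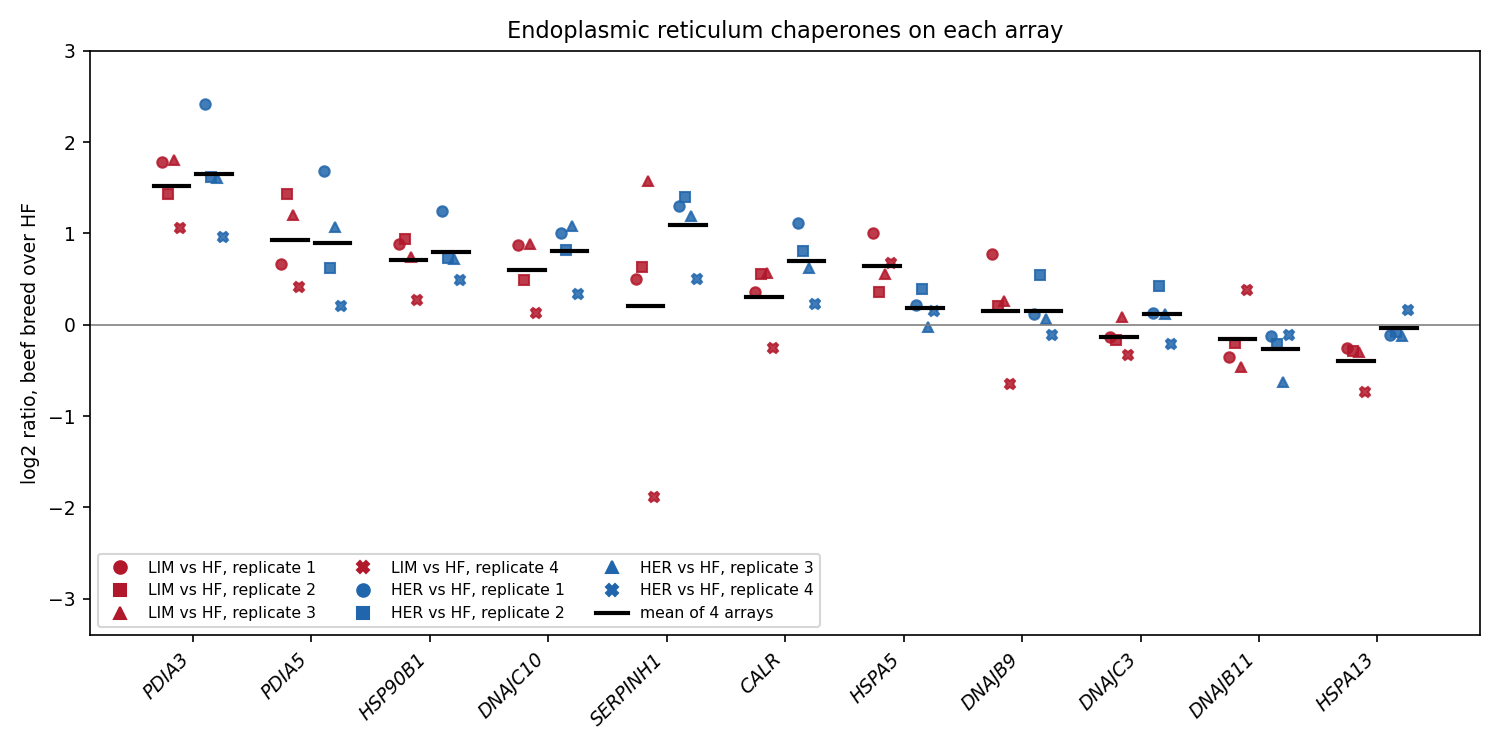
Log2 ratio over HF of the 11 ER chaperones on each array, LIM in red and HER in blue, with a symbol for each replicate number and a bar at the mean of 4 arrays. All 8 points of PDIA3, PDIA5, HSP90B1 and DNAJC10 lie above 0, and SERPINH1 has a single point far below 0, at -1.88 on LIM replicate 4.

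DNAJC10, a reductase of the ER that opens wrong disulfide bonds, was higher in LIM by 0.59 ± 0.36 (limma adjusted p = 0.0262) and in HER by 0.81 ± 0.33 (adjusted p = 0.0136). Its ratios were 0.87, 0.49, 0.89 and 0.13 in LIM and 1.01, 0.82, 1.08 and 0.34 in HER, above 0 throughout and lowest on replicate 4 of each comparison. PDIA5, another disulfide isomerase, averaged 0.93 ± 0.47 in LIM (limma adjusted p = 0.0211) and 0.90 ± 0.63 in HER (adjusted p = 0.0333). A dimmer probe of PDIA5 gave 0.26 ± 1.21 and 0.62 ± 0.60 and was not called. The calls of both genes were lost with fewer arrays. For DNAJC10, the limma adjusted p was 0.0975, 0.0625 and 0.113 without LIM replicate 1, 2 or 3, and 0.0622, 0.0563 and 0.0504 without HER replicate 1, 2 or 3. For PDIA5 it was 0.0873 and 0.0879 without LIM replicate 2 or 3, and 0.129, 0.0803 and 0.0993 without HER replicate 1, 2 or 3.

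CALR (calreticulin), a lectin chaperone that also stores calcium, had ratios of 1.12, 0.81, 0.62 and 0.23 on the HER arrays. They were all above 0, with a mean of 0.69 ± 0.37 (limma adjusted p = 0.0264), and the call was lost without HER replicate 1, 2 or 3 (adjusted p = 0.112, 0.0992 and 0.0668). In LIM the ratios were 0.36, 0.56, 0.56 and -0.25. Replicate 4 alone lay below 0, and the mean of 0.31 ± 0.38 was not called (limma adjusted p = 0.213) but became 0.49 without that array (adjusted p = 0.0486). HSPA5 (BiP), the HSP70 of the ER, had LIM ratios of 1.00, 0.36, 0.55 and 0.68 and HER ratios of 0.22, 0.39, -0.03 and 0.15. It was higher in LIM by 0.65 ± 0.27 (limma adjusted p = 0.00592) and stood at 0.18 ± 0.17 in HER (adjusted p = 0.318). The difference of the comparisons, LIM minus HER, was 0.47 ± 0.18 (SE), with an unadjusted p of 0.0311 and a limma adjusted p of 0.278. With normexp and loess, the LIM call of HSPA5 was lost (0.75, limma adjusted p = 0.234) and its HER value turned to -0.49.

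SERPINH1, the collagen chaperone HSP47, ranged more widely than any other ER member. The LIM ratios were 0.50, 0.63, 1.57 and -1.88, and the HER ratios 1.3, 1.40, 1.19 and 0.50. A single LIM array thus lay far below 0, and all HER arrays lay above it. Neither mean was called, 0.21 ± 1.47 for LIM (limma adjusted p = 0.755) and 1.10 ± 0.41 for HER (adjusted p = 0.113). Without LIM replicate 4 the LIM mean was 0.90 (adjusted p = 0.0244), and without LIM replicate 3 it was -0.25. Most markers of fibroblasts, collagen genes among them, took their lowest values on replicate 4 too. COL1A1 stood at 3.23, 1.91, 2.62 and 0.77 in LIM and at 2.64, 2.71, 2.80 and 1.05 in HER. COL1A2, COL3A1, DCN, LUM and THY1 were likewise lowest on replicate 4 of both comparisons, so 6 of the 9 fibroblast markers measured were. POSTN was lowest on replicate 4 in LIM and on replicate 2 in HER, and PDGFRA and TCF21 had their highest LIM value on replicate 4. Whether cells that make collagen have a part in the ER chaperone values was not tested.

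HSPA13, an HSP70-like ATPase, was the 1 ER member called lower, and it was lower in LIM (-0.40 ± 0.23, limma adjusted p = 0.0292) and stood at -0.04 ± 0.13 in HER. Its LIM ratios were -0.25, -0.29, -0.30 and -0.74, and the call was lost whichever LIM array was left out (adjusted p between 0.0512 and 0.0738). Unlike DNAJC10, the other J-domain partners of HSPA5 were called in neither comparison. DNAJB11 had means of -0.16 and -0.27 in LIM and HER, DNAJC3 of -0.14 and 0.12, and the brighter probe of DNAJB9 of 0.15 and 0.15. A dimmer probe of DNAJB9 gave 0.70 and 0.46, called in neither comparison, lay above 0 on 8 of 8 arrays and was called higher for the mean of both beef breeds (0.58, limma adjusted p = 0.025).

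Among 24 other genes of ER folding and the unfolded protein response, 8 had a tested probe. Of these, 5 were called higher in LIM, 3 in HER and 0 lower in either, where 16% and 10.4% of all probes were called higher. PPIB, a prolyl isomerase that works on procollagen, averaged 1.21 ± 0.62 in LIM and 0.85 ± 0.39 in HER (limma adjusted p = 0.00561 and 0.0329). SIL1, the nucleotide exchange factor of HSPA5, averaged 0.68 ± 0.41 and 0.70 ± 0.33 (adjusted p = 0.0192 and 0.0251). DDIT3, a transcription factor induced by ER stress, averaged 0.98 ± 0.71 and 0.99 ± 0.34 (adjusted p = 0.0174 and 0.0246). ERO1A, the oxidase that recharges disulfide isomerases, and EIF2AK3, the stress sensor PERK, were called in LIM (1.53 and 0.74) and not in HER (0.77 and 0.05). XBP1, another transcription factor of this response, stood at -0.01 in LIM and -0.09 in HER.

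The muscle small heat shock proteins were represented by HSPB2, HSPB3, HSPB6 and HSPB8, each with 1 probe. None of the 4 was called in LIM or in HER with the main settings. HSPB8 was called higher in both with array weights (limma adjusted p = 0.00547 in LIM and 0.0137 in HER). Over probes well above background in all channels, HSPB8 was called in both (0.0434 and 0.0493) and HSPB6 was called lower in LIM (0.0437). With the replicate block HSPB8 was called in LIM (0.0467). With normexp and loess it was called in neither. With the limma p left unadjusted, at the same thresholds, HSPB8 and HSPB6 passed in LIM and HSPB8 in HER, and with the methods' t-test at the same unadjusted p, 0 passed in LIM and HSPB8 in HER. HSPB8, which with BAG3 directs damaged proteins of muscle to autophagy, had the highest means of the class. Its ratios were 2.76, 1.3, 1.84 and -0.44 in LIM and 1.16, 2.04, 2.03 and 0.46 in HER, above 0 on 7 of 8 arrays. The means were 1.37 ± 1.35 (limma adjusted p = 0.0513) and 1.42 ± 0.76 (adjusted p = 0.0563), and the mean of both beef breeds was called (1.39 ± 0.33, SE, adjusted p = 0.00926). Without LIM replicate 4, the LIM mean of HSPB8 was 1.97 (adjusted p = 0.00635). BAG3 itself averaged -0.15 in LIM and -0.15 in HER and was not called.

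HSPB6 (HSP20), found mainly in muscle, had negative ratios on all 8 arrays, -0.22, -0.24, -0.30 and -1.08 in LIM and -0.40, -0.23, -0.06 and -0.03 in HER. Its means were -0.46 ± 0.41 (limma adjusted p = 0.0523) and -0.18 ± 0.17 (adjusted p = 0.425). HSPB2 and HSPB3 form a complex with each other in muscle. HSPB2 averaged -0.12 ± 0.24 in LIM and 0.29 ± 0.56 in HER. HSPB3 scattered over both signs, with 0.69, -0.31, -0.48 and 2.11 in LIM and 1.67, 0.79, -2.79 and 1.53 in HER. On HER replicate 3 the beef channel of HSPB3 was not well above background, so that low value is uncertain.

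Over gene means, the median of the 4 small heat shock genes exceeded the median of the other 50 tested member genes by 0.34 in LIM and 0.44 in HER. Taken on each array, which is another measure, the difference was 0.60, -0.000824, 0.05 and -0.62 on LIM replicates 1 to 4 (SD 0.50). The LIM excess was thus not shared by the arrays. On HER replicates 1 to 4 it was 0.91, 0.92, -0.13 and 0.65 (SD 0.49). The difference over gene means was smaller than the SD between arrays in both comparisons. That SD describes single arrays and the other measure, not the error of a mean of 4 arrays. The difference itself was not tested. Over gene means, the LIM difference was 0.20 without LIM replicate 4, 0.11 with normexp and loess and 0.02 over probes well above background in all channels. The last of these filters left out HSPB3, so it compared 3 small heat shock genes with 48 other members. Without HER replicate 3, the HER difference was 1.03. The class held HSPB8, with means of 1.37 and 1.42 that were called in neither comparison alone, and 3 genes with means between -0.46 and 0.50. Of the other 50 genes, 14 were called in LIM (28%) and 9 in HER (18%), against 34.3% and 24.4% of all probes.

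**Figure D3:**
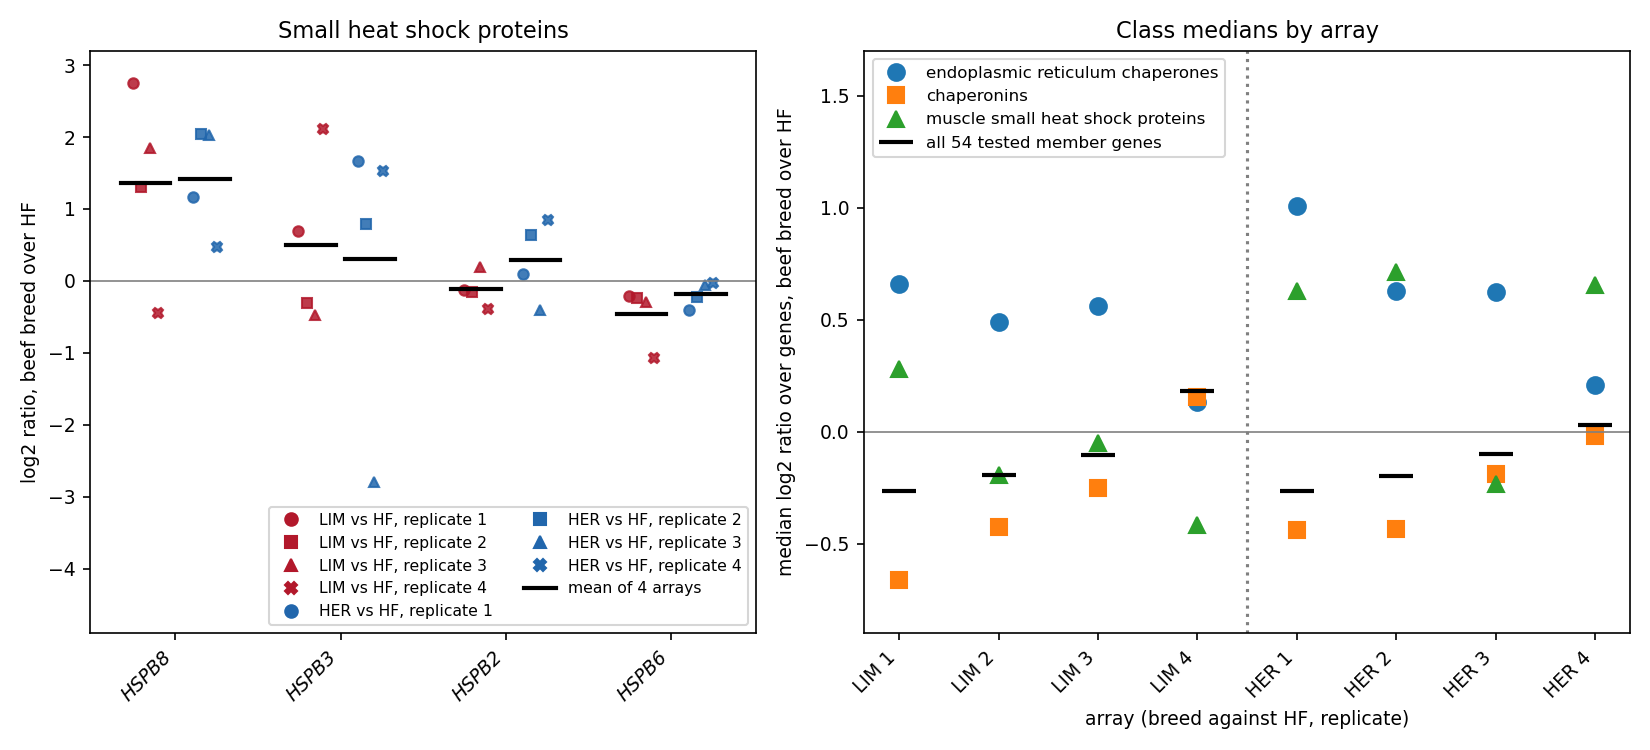
Left, log2 ratio over HF of the 4 small heat shock proteins on each array, LIM in red and HER in blue, with a symbol for each replicate number and a bar at the mean of 4 arrays. Right, median log2 ratio of the ER chaperones, the chaperonins, the small heat shock proteins and all 54 tested member genes on each array. The ER chaperones lie above the chaperonins on 7 arrays and at nearly the same level on LIM replicate 4, at 0.13 and 0.16.

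The calls among the chaperonins were below HF. Of the 10 genes measured, 3 were lower in LIM (median -0.30) and 0 were called in HER (median -0.23), where 4 passed at an unadjusted limma p, 3 of them lower, and 3 with the methods' t-test. Over all probes, 18.3% were called lower in LIM and 14% in HER. CCT5, a subunit of the cytosolic ring, had LIM ratios of -1.19, -1.06, -0.68 and -0.87, all below 0, and the most negative LIM mean of all members. It was lower than in HF by 0.95 ± 0.22 on the log2 scale (mean -0.95, limma adjusted p = 0.00254). In HER it stood at -0.59, -0.21, -0.21 and 0.29, with a mean of -0.18 ± 0.36 (adjusted p = 0.407). The difference, LIM minus HER, was -0.77 ± 0.22 (SE), with an unadjusted p of 0.00685 and a limma adjusted p of 0.172.

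CCT7 averaged -0.49 ± 0.37 in LIM (limma adjusted p = 0.0356) and -0.47 ± 0.21 in HER (adjusted p = 0.0519). TCP1, subunit 1 of the ring, averaged -0.67 ± 0.58 in LIM (limma adjusted p = 0.0456) and -0.23 ± 0.35 in HER (adjusted p = 0.475). Both LIM calls were lost without LIM replicate 1, 2 or 3, with adjusted p of 0.132, 0.0989 and 0.13 for CCT7 and of 0.168, 0.124 and 0.13 for TCP1. Without LIM replicate 4, in contrast, 6 of the 10 chaperonins were lower in LIM, CCT2 (-0.54), CCT3 (-0.54) and CCT8 (-0.41) in addition. On LIM replicate 4, 9 of the 10 chaperonins had a ratio above 0, CCT5 being the exception.

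**Figure D4:**
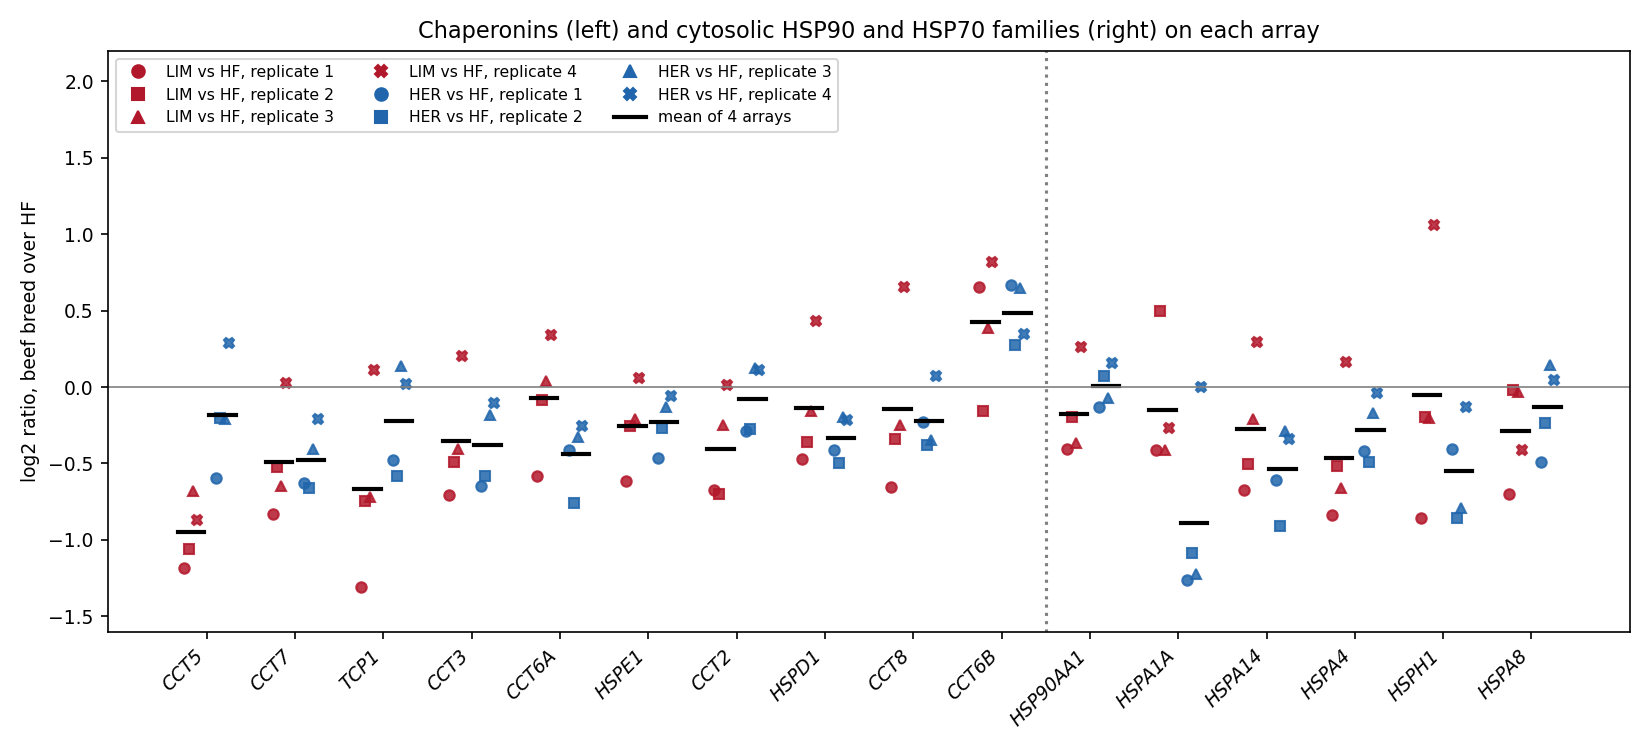
Log2 ratio over HF on each array of the 10 chaperonins (left of the dotted line) and of HSP90AA1 and 5 cytosolic HSP70 family genes (right), LIM in red and HER in blue, with a bar at the mean of 4 arrays. The crosses of LIM replicate 4 lie above 0 for 9 of the 10 chaperonins, where most other points lie below 0, and CCT6B has means of 0.42 and 0.48.

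CCT6B, a subunit best known from testis, was the single chaperonin with positive means, 0.42 ± 0.43 in LIM and 0.48 ± 0.20 in HER (limma adjusted p = 0.0756 and 0.062). It lay above 0 on 7 of 8 arrays, and its mean over both beef breeds was called (0.45, adjusted p = 0.0128). Its close relative CCT6A averaged -0.07 in LIM and -0.44 in HER. The mitochondrial chaperonin HSPD1 and its lid HSPE1, neighbouring genes in the annotation, were not called, with means of -0.14 and -0.25 in LIM and of -0.33 and -0.23 in HER. HSPD1 lay below 0 on 7 of 8 arrays, as did HSPE1.

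Of the 6 cytosolic HSP70 family genes, 0 were called in LIM and 1 in HER, where 34.3% and 24.4% of all probes were. HSPA1A, the heat-inducible HSP70, had HER ratios of -1.26, -1.09, -1.22 and -0.00121 and LIM ratios of -0.41, 0.50, -0.41 and -0.27. HER replicates 1 to 3 lay close together and replicate 4 at 0. The HER mean of -0.89 ± 0.60 was called lower (limma adjusted p = 0.0283), and the LIM mean of -0.15 ± 0.43 was not (adjusted p = 0.653). The HER call was lost without HER replicate 1, 2 or 3 (adjusted p = 0.117, 0.106 and 0.0959), and the probe may also read the near-identical HSPA1B. HSPA1L, the testis gene beside it, was not well above background in either channel of any HER array and has no HER fold. Its LIM ratios were 0.31, 0.86, 0.32 and 2.19, with the HF channel well above background on 2 of the 4 arrays, and the mean of 0.92 ± 0.89 was not called (limma adjusted p = 0.0858).

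HSPA8, the constitutive HSP70, averaged -0.29 ± 0.33 in LIM and -0.13 ± 0.29 in HER and was not called. HSP90AA1, the inducible cytosolic HSP90, averaged -0.18 ± 0.31 and 0.01 ± 0.13. HSPH1, an exchange factor of HSP70, ran from -0.86 to 1.06 over the LIM arrays, with LIM replicate 4 at the top, and averaged -0.05 ± 0.80 in LIM (-0.42 without that array, not called) and -0.55 ± 0.34 in HER. HSPA4, of the same function, had 2 probes of opposite sign. The brighter gave -0.46 ± 0.44 in LIM and -0.28 ± 0.21 in HER, and the dimmer 0.35 ± 0.10 and 0.25 ± 0.20, so its direction is not settled. The brighter probe was called lower in LIM without LIM replicate 4 (-0.67, limma adjusted p = 0.00671). HSPA14, which works at the ribosome, averaged -0.27 ± 0.42 in LIM and -0.54 ± 0.28 in HER (limma adjusted p = 0.252 and 0.0541). The LIM mean of HSPA14 without LIM replicate 4 was called lower (-0.46, limma adjusted p = 0.0483).

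Among 20 co-factors and regulators of the heat shock response, 9 had a tested probe, with 1 called higher and 2 lower in LIM and 0 in HER. The LIM calls were 33.3% of the 9, near the 34.3% of all probes called in LIM, and 24.4% of all probes were called in HER. FKBP4, a co-chaperone of HSP90, and CHORDC1, another HSP90 partner, were lower in LIM (-0.63 ± 0.45 and -0.58 ± 0.19). HSF2, a heat shock transcription factor, was higher there (0.48 ± 0.39, limma adjusted p = 0.0342).

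The J-domain proteins outside the ER were called in both directions. DNAJB2, which takes HSP70 clients to the proteasome, was higher in both comparisons and on 8 of 8 arrays. Its ratios were 0.48, 0.74, 0.78 and 0.61 in LIM and 0.96, 0.49, 0.34 and 0.53 in HER, with means of 0.65 ± 0.14 (limma adjusted p = 0.00504) and 0.58 ± 0.27 (adjusted p = 0.0142). The HER call was lost without HER replicate 1 (adjusted p = 0.0555) or 2 (adjusted p = 0.0506). DNAJA4 averaged 0.52 ± 0.87 in LIM, where replicate 4 stood at -0.63, and 0.81 ± 0.59 in HER, and was called in neither. Without LIM replicate 4 its LIM mean was 0.91 (limma adjusted p = 0.0355). DNAJA1 and DNAJB1, the common cytosolic partners of HSP70, averaged -0.31 and 0.32 in LIM and -0.37 and -0.14 in HER and were not called.

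In the DNAJC class, 3 of 14 genes (21.4%) were lower in LIM and 1 (7.14%) in HER, and 0 were higher. Over all probes, 18.3% were called lower in LIM and 14% in HER, so the class was near or below that share. For the mean of both beef breeds 3 were lower and 1 higher, DNAJC12 (0.41, limma adjusted p = 0.0473). DNAJC27, a small GTPase with a J domain, had ratios below 0 on all 8 arrays and means of -0.77 ± 0.28 in LIM (limma adjusted p = 0.00523) and -0.46 ± 0.29 in HER (adjusted p = 0.0497). The HER call was lost whichever HER array was left out (adjusted p between 0.0778 and 0.186), and a dimmer probe of the gene gave -0.04 and -0.13. DNAJC11, of the mitochondrial membranes, was -0.79, -0.64, -0.77 and -0.51 in LIM, a mean of -0.68 ± 0.13 (limma adjusted p = 0.00332), and -0.31 ± 0.23 in HER. DNAJC17, a nuclear J protein, averaged -0.43 ± 0.13 in LIM (limma adjusted p = 0.0138, 0.0514 without LIM replicate 1 and 0.0693 without LIM replicate 3) and -0.29 ± 0.15 in HER. DNAJC21, of ribosome assembly, averaged -0.37 ± 0.83 in LIM and -0.73 ± 0.33 in HER, and without LIM replicate 4 its LIM mean was -0.76 (limma adjusted p = 0.0137).

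Genes that share only the HSPB letters were read apart from the small heat shock proteins. HSPBAP1, a partner of HSPB1, averaged 0.51 ± 0.13 in LIM and 0.61 ± 0.48 in HER (limma adjusted p = 0.0471 and 0.0344) and lay above 0 on 8 of 8 arrays. Its LIM call was lost whichever LIM array was left out (adjusted p between 0.085 and 0.126) and its HER call without HER replicate 1, 2 or 3 (adjusted p = 0.138, 0.0764 and 0.122). HSPBP1, an exchange factor of HSP70, averaged -0.42 ± 0.49 and -0.19 ± 0.27 and was not called. Its LIM mean without replicate 4, which stood at 0.20, was called lower (-0.63, limma adjusted p = 0.0205).

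No member probe differed between the comparisons after adjustment. LIM minus HER gave 0 calls among the 58, against 0.233% of all probes, and CCT5 and HSPA5 were the 2 that passed at an unadjusted limma p. Markers of other cell types moved beside the members. Over all probes, 16% were called higher and 18.3% lower in LIM, and 10.4% and 14% in HER. All 11 measured genes of differentiating muscle cells were called higher in both comparisons. The summed intensity of these 11 ran from 55571 to 123480 in LIM cultures and from 4141 to 10379 in the HF cultures beside them, and from 16497 to 107594 in HER and 2094 to 11643 in HF. Of 9 fibroblast markers, 5 were higher and 1 lower in LIM, and 5 higher and 2 lower in HER, with COL1A1 higher and PDGFRA lower in both. The summed intensity of the 9 ran from 363890 to 788543 in LIM against 63593 to 227791 in HF, and from 279729 to 545962 in HER against 55356 to 155595. Of 6 markers of smooth muscle cells and pericytes, 3 were higher in each comparison. Of 4 endothelial markers 0 were called in LIM and 1 lower in HER, of 5 adipocyte markers 1 was higher in each and 1 lower in LIM, of 3 leukocyte markers 1 was higher in each, and of 2 markers of dividing cells 0 were called. The part of these cells in the chaperone values was not tested, and in cultures of mixed cells a change in the number of cells of a type and a change in RNA per cell cannot be told apart.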

How the data were processed

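RNA of proliferating muscle cells was compared on 8 two-colour oligonucleotide arrays, 4 of LIM against HF and 4 of HER against HF. The authors deposited the output of Feature Extraction 10.7.3.1 for each array, with the processed intensity of both dyes and the log10 ratio of red to green, in which the software had subtracted background and normalized the dyes. The design rests on the Btau 3.1 build. The deposited table of the series holds the same log10 ratios. The software sets the ratio of some dim spots to 0, which pulls their mean toward 0.

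The ratios were turned to log2 beef over HF, outlying spots were left out, and the spots of a probe were averaged. Of 21475 probes, 8297 were named through their RefSeq accession (assembly ARS-UCD2.0). Where a gene had 2 tested probes, the brightest gave its value. The 17631 probes with a signal well above background in 4 or more channels were fitted with limma 3.58.1 (R 4.3.3), with a mean for each comparison over all 8 arrays. Calls required a Benjamini-Hochberg adjusted p no higher than 0.05 together with a fold change no lower than 1.3. With 4 arrays in a comparison, their number limits the precision. The labels call them biological replicates. The sources used here do not give the HF bull of each array, so p-values of the mean over both breeds may be too small.

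The members, lists, settings and named genes were chosen with earlier results of these data known, among them that normexp and loess leave no adjusted call for HER. Genes were named by a rule (small heat shock proteins, well-known chaperones, and the 2 highest and 2 lowest genes of each class by the mean over both breeds), which gave 36 genes. DNAJC10, DNAJC11, DNAJC17, HSPA4, genes of the accessory lists and a few members quoted for their class were named after their values were seen. Alternatives were normexp and loess on the median intensities with and without replacing outlying backgrounds, centring, filters, array weights, a replicate block, the deposited table, the methods' t-test, no adjustment and leaving out each array. In simulated data with 17631 probes, 200 of them shifted, the LIM test recovered 66% of probes shifted by 1 on the log2 scale. It recovered 85% of those shifted by 2 and called 0.0631% of unshifted probes. In the LIM data 34.3% of probes were called, and the adjusted p depends on that share, so these rates may not hold there.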

Additional observations from a re-analysis of the deposited data

Results flagged for a closer look

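Of 82 groups of 4 ratios examined for a single array far from the others (2 comparisons of 40 named genes and of the small heat shock difference), 7 had one, and chance alone gives about 1 in 20. On LIM replicate 4, HSPA13 stood at -0.74, against -0.25 to -0.30 on the other LIM arrays, and HSPB6 at -1.08, against -0.22 to -0.30. On HER replicate 4, HSPA13 stood at 0.16, DNAJA1 at -0.18 and HSPA1A at -0.00121, each above the other HER arrays. HSPA1A was 0.50 on LIM replicate 2, and DNAJC27 was -0.89 on HER replicate 1.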

How the results depend on the processing

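Counts of member probes called depended on the setting, beside 14 for LIM, 9 for HER and 21 for the mean of both beef breeds as reported. With array weights 22 were called for LIM and 20 for HER. With p left unadjusted the counts were 22 and 20, and 2 for LIM minus HER. With the methods' t-test, LIM had 2 after Benjamini-Hochberg adjustment, and HER had 15 unadjusted and 0 adjusted. With normexp and loess, HER had 0 and the mean of both breeds 10, whereas HER had 9 when local backgrounds marked as outlying were replaced. Centring on the spike-in spots, chosen after seeing the data, moved the median of all probes to 0.73. That centring gave 48 higher and 0 lower (13472 called in all) for the mean of both breeds. The amounts of spike-in RNA are not stated in the sources used here. Leaving out 1 array gave 7 to 28 probes for LIM, the lowest without LIM replicate 3 (3796) and the highest without LIM replicate 4 (7011). For HER it gave 2 to 20. There were 2 without HER replicate 1 (1574) or 2 (1527), 3 without HER replicate 3 (2660) and 20 without LIM replicate 4 (5439). Leaving out 1 array moved the small heat shock difference in HER to between 0.20 and 1.03. The cause of these changes was not tested, other than that fewer arrays leave fewer degrees of freedom.

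With the replicate number as a replicate block, 14 probes were called for LIM, 10 for HER, 17 for the mean of both and 0 for LIM minus HER. Same-numbered LIM and HER arrays deviated from their means with r of -0.24, 0.13, 0.30 and 0.54, and arrays of unlike number with r from -0.47 to 0.40. The HF bull of each array is not given, so these values cannot settle whether replicate numbers pair the arrays.

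A sign turned for named genes that were called in neither setting. With normexp and loess HSP90AA1 stood at -0.61, HSPA5 at -0.49 and HSPA13 at 0.0164 in HER, and HSPH1 at 0.0136 in LIM. With outlying backgrounds replaced, HSPA13 in HER stood at 0.0155 and HSPH1 in LIM at 0.0162. Centring on array medians gave HSPA13 0.0229 in HER, and array weights gave HSPB3 -0.0294 in LIM. Leaving out 1 array gave LIM ranges of -0.41 to 0.0224 for CCT8, -0.0443 to 0.14 for DNAJC18, -0.0322 to 0.83 for HSPB3, -0.42 to 0.22 for HSPH1 and -0.25 to 0.90 for SERPINH1. The HER ranges were -0.23 to 0.00265 for DNAJB1, -0.0436 to 0.0521 for HSP90AA1 and -0.16 to 1.33 for HSPB3. Of 1024 values of named genes under other settings, 883 kept their sign and their side of the thresholds, 51 gained a call, 70 lost one and 20 turned sign.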
